A study of Homo sapiens with 24 samples.

Results

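Drug tolerant persister (DTP) cells of a chemoresistant oesophageal cancer line were set against DTP cells of its parental line, at the level of messenger RNA. Both belong to KYSE450, an established cell line from a human squamous tumour of the oesophagus. The comparison took 12 of the 24 libraries of the series: 6 of chemoresistant DTP cells, titled KYSE450DDP-DTP, and 6 of parental DTP cells, titled KYSE450-DTP. Of 61251 genes in the table, 13179 were described, those whose mean in either DTP group reached 1 FPKM, where FPKM counts reads per kilobase of gene, scaled to the depth of the library. At the edge of that filter, ENSG00000288586 was just inside with means of 0.817 FPKM in chemoresistant DTP cells and 1.0001 FPKM in parental DTP cells, and ENSG00000239470 just outside with 0.34 FPKM in chemoresistant DTP cells and 0.99967 FPKM in parental DTP cells. The other 12 libraries came from chemoresistant cells (KYSE450DDP) and parental cells (KYSE450) outside the DTP state, 6 of each. All 4 groups carry a wild-type genotype label, were kept in RPMI-1640 medium and fetal bovine serum and have no treatment listed. The labels name neither the drug nor the dose that selected the chemoresistant line or the persisters, do not explain the suffix DDP, and do not say whether the resistant line is a clone. They are silent on separate cultures too, so a p-value here measures the spread among libraries alone, which may be technical.

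Persister cells are those that outlive a drug without a heritable resistance mutation, while a chemoresistant line is a population adapted to growth under drug. The series title concerns GDF15 and its receptor GFRAL, the transcription factor NRF2, glutathione synthesis through GCLC, and cuproptosis, a cell death set off by copper bound to lipoylated mitochondrial enzymes. NRF2 is kept low by KEAP1, which hands it to degradation. Once free, it switches on genes that make glutathione and NADPH and that reduce or export reactive compounds. Squamous epithelium of the oesophagus matures by moving from basal cells rich in keratins 5 and 14 to upper layers that build a cornified envelope and carry S100 proteins and protease inhibitors. Interferon signals through a complex of transcription factors that bind a short element in the promoters of interferon-stimulated genes.

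The libraries held 20166509 to 29128757 reads in chemoresistant DTP cells and 14947379 to 37989445 reads in parental DTP cells, as recovered from the deposited values, so that the limit for a gene with 0 reads, taken as 3 reads, was 0.103 to 0.149 CPM in chemoresistant DTP libraries and 0.079 to 0.201 CPM in parental DTP libraries. This limit covers counting error only. Markers of squamous epithelium were abundant in both groups: all 24 basal squamous markers passed the filter, with KRT5 at 2304, 2354 and 2522 FPKM in chemoresistant DTP cells, against 1077, 1114 and 1413 FPKM in parental DTP cells (lowest, median and highest of 6 libraries, an order kept below). KRT6A had 1745, 1959.7 and 2069.6 FPKM in chemoresistant DTP cells, against 701, 763 and 939 FPKM in parental DTP cells. TP63, the master factor of squamous cells, had 65.9, 107 and 109 FPKM in chemoresistant DTP cells, against 136, 174 and 185 FPKM in parental DTP cells. Among 12 fibroblast, 13 leukocyte, 10 endothelial, 13 glandular and 9 erythroid markers, 4 passed the filter: COL1A1, MFAP5, LYZ and AGR2. CD3E and MS4A1 of the leukocyte list, EMCN of the endothelial list and HBG1 of the erythroid list had 0 reads in all 12 libraries. The summed leukocyte markers lay between 0.618 and 3.26 FPKM in chemoresistant DTP libraries and between 0.670 and 2.82 FPKM in parental DTP libraries. The summed fibroblast markers lay between 3.66 and 15.8 FPKM in chemoresistant DTP libraries and between 3.53 and 8.26 FPKM in parental DTP libraries. The summed glandular markers, led by AGR2, were lower in chemoresistant DTP libraries (7.2028 to 12.5 FPKM) than in parental DTP libraries (17.7 to 24.3 FPKM). Here and below, fewer cells of a type and less RNA per cell cannot be told apart, since each library is a bulk sample.

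A few libraries stood apart from their groups. Across the 12 libraries, the first principal component held 73.5% of the variance and divided the lines, with chemoresistant DTP libraries at 28.6 to 36.8 and parental DTP libraries 1 to 4 at -35.2 to -32.8. Parental DTP libraries 5 and 6 lay nearer to the chemoresistant side, at -26.7 and -23.4. For 21 genes at 10 FPKM or more in chemoresistant DTP cells and under 1 FPKM in parental DTP libraries 1 to 4, limits chosen after seeing the data, libraries 5 and 6 carried a median excess of 3.16% and 2.74% of the chemoresistant DTP level. In library 5, 14 of these genes reached 1 FPKM, in library 6 it was 12, and in libraries 1 to 4 none did, as the rule required. Where this excess comes from was not tested. Without libraries 5 and 6, 414 of the 415 genes called at least 2-fold higher and 305 of the 306 called at least 2-fold lower were still called in the same direction. The fold moved by over 1.5 times for 5 of the 415, each toward a larger difference: S100A9, AKR1C3, BST2, IFI27 and IFI6, whose values without these libraries stand beside them below. It moved for 2 of the 306, also toward a larger difference. MTCO3P12, a pseudogene whose near-identical mitochondrial copy makes its FPKM uncertain, had a log2 fold change of -1.31 and of -2.02 without them, and an entry with no gene name of -1.45 and of -2.15. Without these 2 and chemoresistant DTP library 2, the numbers were 414 and 305 as well, and the fold moved by over 1.5 times for 3 genes on each side, AKR1C3, BST2 and S100A9 among the higher and MTCO3P12, the unnamed entry and MTND4P12, another pseudogene, among the lower. Chemoresistant DTP library 2 stood apart on the second component (9.8% of the variance), at -32.6 against 0.6 to 12.5 in the other chemoresistant DTP libraries. It also had fewer genes at 1 FPKM or more, 11840 against 12367 to 12573 in those libraries. What sets it apart was not tested. In that library the S100 list lay 0.376 above its group mean on the log2 scale (median over members), against -0.151 to -0.008 in the other 5 libraries, and the nuclear respiratory chain list lay 0.364 above it, against -0.092 to -0.013. GC content of genes tracked how a library deviated from its group, with Spearman rho over genes between -0.49 and 0.543. The part of this trend in the results was not tested beyond the fit with the trend removed, given with the other settings.

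Of the genes tested, 8231 (62.5%) differed. In all, 3855 genes (29.3% of those tested) were higher and 4376 (33.2%) lower in chemoresistant DTP than in parental DTP cells by limma at a Benjamini-Hochberg adjusted p under 0.05. At least a 2-fold difference on the log2(FPKM + 1) scale was found for 415 of the higher genes (3.15% of those tested) and 306 of the lower ones (2.32%). The 6 and 6 libraries did not overlap for 2134 higher genes (16.2%) and 2683 lower genes (20.4%). The median log2 fold change over all genes was -0.028, so a list of genes is read below against a median near 0 and against shares of 29.3% higher and 33.2% lower. A list member that passed the filter only through the group where it was high had to differ, so these counts describe the lists and test nothing. A fold change on this scale understates the difference of genes at low levels.

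**Figure D1:**
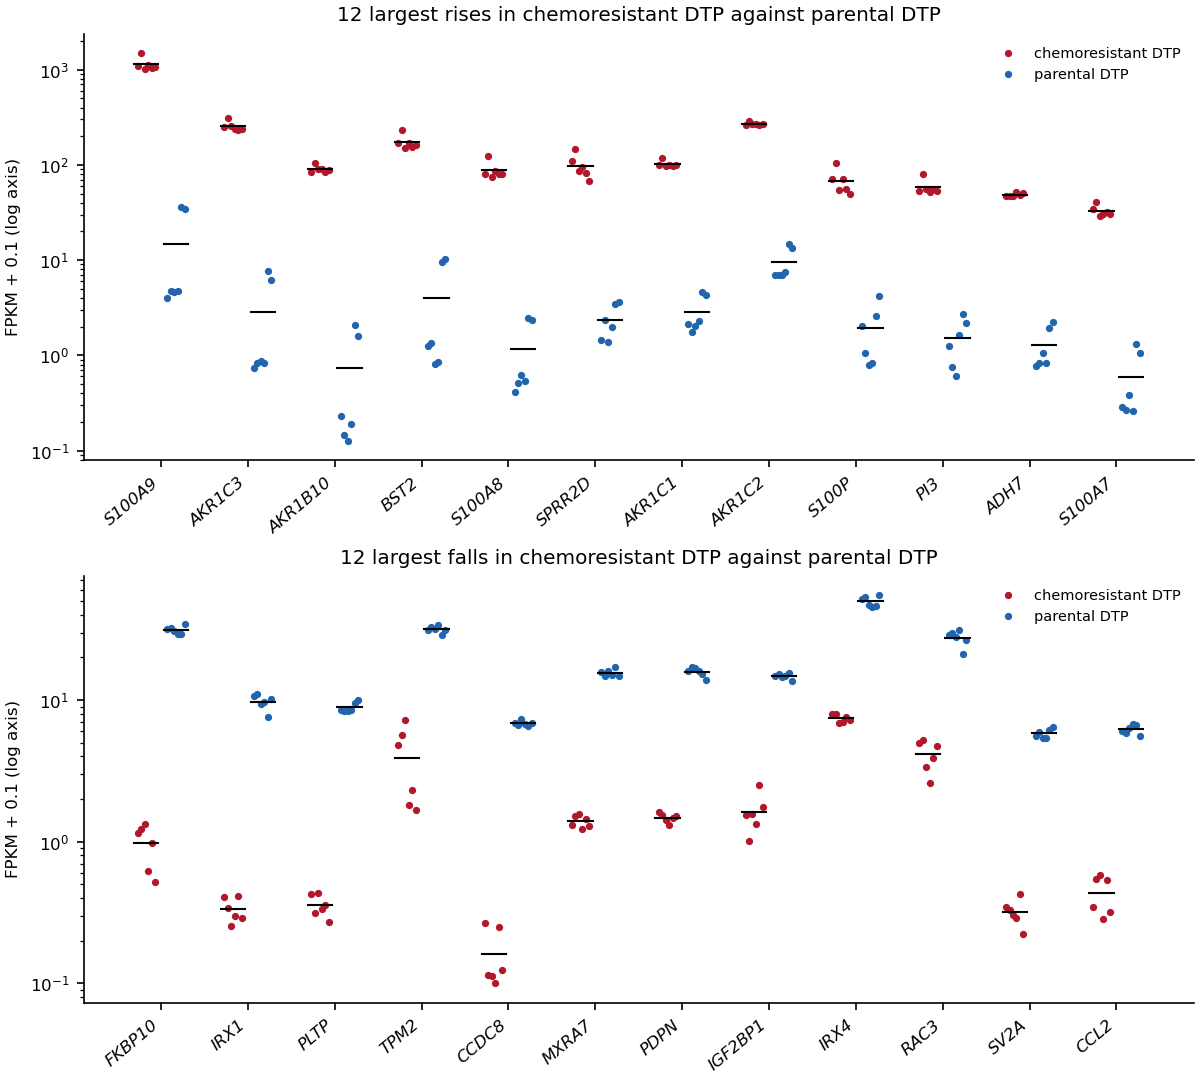
FPKM + 0.1 per library on a log axis (points) with group means (bars) for the 12 protein coding genes with the largest rises (top) and the largest falls (bottom) in chemoresistant DTP cells (red, left of each pair) against parental DTP cells (blue, right). In the top panel the last 2 blue points of a gene are libraries 5 and 6, which lie above the other 4 for S100A9 (35.9 and 34.1 FPKM) but below every red point.

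The largest differences lay in calcium-binding S100 proteins and aldo-keto reductases. S100A9 (ENSG00000163220, chromosome 1, 153357854 to 153361027; GRCh38, GENCODE 29), which pairs with S100A8 to form the antimicrobial protein calprotectin, had 1007, 1083 and 1489.9 FPKM in chemoresistant DTP cells, against 3.8996, 4.62 and 35.9 FPKM in parental DTP cells. For S100A9 the log2 fold change was 6.79 ± 0.39 (SE, limma, adjusted p = 1.6e-13). All chemoresistant DTP libraries lay far above all parental DTP libraries, and the highest 2 of the parental group were libraries 5 and 6. Without those 2, the log2 fold change was 7.71. AKR1C3 (ENSG00000196139, chromosome 10, 5035354 to 5107686), a reductase of steroids and aldehydes that NRF2 induces, had 232, 244 and 313 FPKM in chemoresistant DTP cells, against 0.641, 0.75 and 7.56 FPKM in parental DTP cells. For AKR1C3 the log2 fold change was 6.48 ± 0.31 (SE, limma, adjusted p = 3.8e-15), or 7.21 without parental DTP libraries 5 and 6. AKR1B10 (ENSG00000198074, chromosome 7, 134527592 to 134541408), a reductase of retinal and lipid aldehydes, had 84.3, 88.3 and 104 FPKM in chemoresistant DTP cells, against 0.0259, 0.109 and 1.97 FPKM in parental DTP cells. For AKR1B10 the log2 fold change was 5.95 ± 0.19 (SE, limma, adjusted p = 2e-18). In 4 of the 6 parental DTP libraries AKR1B10 lay between 0.0259 and 0.129 FPKM, close to the limit of detection. BST2 (ENSG00000130303, chromosome 19, 17402939 to 17405648), also called tetherin, an interferon-induced membrane protein that holds budding viruses at the cell surface, had 151, 164 and 233 FPKM in chemoresistant DTP cells, against 0.709, 1.21 and 10.1 FPKM in parental DTP cells. For BST2 the log2 fold change was 5.64 ± 0.35 (SE, limma, adjusted p = 1.01e-12), or 6.46 without libraries 5 and 6. S100A8 had 75.2, 80.8 and 124 FPKM in chemoresistant DTP cells, against 0.307, 0.479 and 2.39 FPKM in parental DTP cells. For S100A8 the log2 fold change was 5.54 ± 0.19 (SE, limma, adjusted p = 7.44e-18). The other 7 of the 12 largest rises were SPRR2D (4.92), AKR1C1 (4.83), AKR1C2 (4.78), S100P (4.68), PI3 (4.67), ADH7 (4.56) and S100A7 (4.54), given as log2 fold changes. None of the 12 had overlapping libraries, which the rule that chose them required. AKR1C1, AKR1C2 and AKR1C3 are near-identical in sequence, as are the SPRR2 genes, so the split of reads within each family is uncertain.

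Genes named by the series title, and KEAP1, GCLM, FDX1 and SLC31A1 from the pathways it names, were higher in chemoresistant DTP cells where they were tested. GDF15 (ENSG00000130513, chromosome 19, 18374731 to 18389176), a cytokine secreted by stressed cells, had 63.9, 75.5 and 95.6 FPKM in chemoresistant DTP cells, against 15.9, 20.4 and 23.9 FPKM in parental DTP cells. For GDF15 the log2 fold change was 1.89 ± 0.087 (SE, limma, adjusted p = 2.02e-15). The lowest chemoresistant DTP library was well above the highest parental DTP library. GFRAL, the brain receptor of GDF15, had 2 reads over the 6 chemoresistant DTP libraries and 2 reads over the 6 parental DTP libraries, so it was not tested and a difference was not detectable at this depth. NFE2L2, which encodes NRF2, had 40.5, 44.3 and 47.1 FPKM in chemoresistant DTP cells, against 27.7, 35.5 and 37.2 FPKM in parental DTP cells. For NFE2L2 the log2 fold change was 0.35 ± 0.078 (SE, limma, adjusted p = 0.00037). KEAP1, its inhibitor, had 53.6, 57.1 and 65.9 FPKM in chemoresistant DTP cells, against 25.02, 26.1 and 35.6 FPKM in parental DTP cells. For KEAP1 the log2 fold change was 1.05 ± 0.090 (SE, limma, adjusted p = 2.98e-10). Neither gene's libraries overlapped between the groups, and the difference of KEAP1 was the larger of the 2. GCLC (ENSG00000001084, chromosome 6, 53497341 to 53616970), which catalyses the pace-setting step of glutathione synthesis, had 65.9, 71.3 and 75.03 FPKM in chemoresistant DTP cells, against 9.03, 11.04 and 12.2 FPKM in parental DTP cells. For GCLC the log2 fold change was 2.61 ± 0.063 (SE, limma, adjusted p = 7.31e-21). GCLM, its modifier subunit, had 19.3, 23.4 and 24.9 FPKM in chemoresistant DTP cells, against 13.4, 14.8 and 19.02 FPKM in parental DTP cells. For GCLM the log2 fold change was 0.53 ± 0.10 (SE, limma, adjusted p = 7.4e-05). Here the groups nearly touched, as the lowest chemoresistant DTP library of GCLM was at 19.3 FPKM and the highest parental DTP library at 19.02 FPKM. FDX1, the ferredoxin needed for protein lipoylation and for killing by copper ionophores, had 4.43, 4.75 and 5.804 FPKM in chemoresistant DTP cells, against 2.85, 3.26 and 4.04 FPKM in parental DTP cells. For FDX1 the log2 fold change was 0.43 ± 0.066 (SE, limma, adjusted p = 4.35e-06). SLC31A1, the copper importer CTR1, had 15.9, 19.7 and 20.8 FPKM in chemoresistant DTP cells, against 14.5, 15.1 and 18.7 FPKM in parental DTP cells. For SLC31A1 the log2 fold change was 0.26 ± 0.062 (SE, limma, adjusted p = 0.000767), and its libraries overlapped.

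NRF2 target genes were higher almost throughout. Of 45 listed targets, 44 passed the filter and 42 of these were higher, 26 by at least 2-fold, and 0 lower, with a median log2 fold change of 1.22. The 2 that did not pass the test were HMOX1, the haem-degrading oxygenase, at a log2 fold change of 0.28 and SLC3A2, a subunit of the cystine importer, at -0.021. The same counts, 42 higher and 0 lower, were found without parental DTP libraries 5 and 6. The 4 largest differences were those of AKR1C3, AKR1B10, AKR1C1 and AKR1C2. AKR1C1 had 96.3, 99.5 and 118 FPKM in chemoresistant DTP cells, against 1.65, 2.12 and 4.56 FPKM in parental DTP cells. AKR1C2 had 264, 269 and 287 FPKM in chemoresistant DTP cells, against 6.79, 7.21 and 14.7 FPKM in parental DTP cells. Both were above 96 FPKM in every chemoresistant DTP library and below 15 FPKM in every parental DTP library. Enzymes of the thioredoxin system and of NADPH supply followed: 16 of 26 tested members were higher and 1 lower, with a median of 0.62. NQO1, a quinone reductase, had 156, 159 and 197 FPKM in chemoresistant DTP cells, against 51.7, 55.4 and 69.3 FPKM in parental DTP cells. For NQO1 the log2 fold change was 1.51 ± 0.064 (SE, limma, adjusted p = 4.05e-16). TXN, thioredoxin itself, had 529, 547 and 790.2 FPKM in chemoresistant DTP cells, against 185, 213 and 219 FPKM in parental DTP cells. For TXN the log2 fold change was 1.47 ± 0.069 (SE, limma, adjusted p = 3.32e-15). PGD, an NADPH-making enzyme of the pentose phosphate pathway, averaged 225 ± 10.7 FPKM in chemoresistant DTP cells and 87.5 ± 3.65 FPKM in parental DTP cells (SD, n = 6 each), and SRXN1, which repairs oxidised peroxiredoxins, averaged 5.805 ± 1.75 FPKM in chemoresistant DTP cells and 1.72 ± 0.957 FPKM in parental DTP cells. None of these 4 genes had overlapping libraries, although SRXN1 came close to it through parental DTP library 6 at 3.63 FPKM.

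Genes of glutathione synthesis and use differed less as a group. Among 31 of 36 listed genes that passed the filter, 21 were higher, 7 by at least 2-fold, and 1 lower, with a median of 0.32. After GCLC, the largest differences were in GPX2, GSTA1 and CHAC1. GPX2, a glutathione peroxidase of epithelia, had 237, 251 and 283 FPKM in chemoresistant DTP cells, against 54.8, 56.6 and 61.1 FPKM in parental DTP cells. For GPX2 the log2 fold change was 2.11 ± 0.051 (SE, limma, adjusted p = 6.92e-21). GSTA1, a glutathione S-transferase, had 3.54, 5.14 and 5.97 FPKM in chemoresistant DTP cells, against 0.45, 0.64 and 0.742 FPKM in parental DTP cells. For GSTA1 the log2 fold change was 1.86 ± 0.092 (SE, limma, adjusted p = 9.44e-15). CHAC1, which breaks glutathione down, had 54.2, 63.04 and 72.4 FPKM in chemoresistant DTP cells, against 21.4, 25.7 and 27.8 FPKM in parental DTP cells. For CHAC1 the log2 fold change was 1.29 ± 0.080 (SE, limma, adjusted p = 7.78e-13). Thus a synthesising and a degrading enzyme of glutathione were both higher, each with separate libraries. Of 17 cuproptosis genes, 14 passed the filter, 6 were higher and 2 lower. Their median was 0.073 (0.22 over members with a mean of 5 FPKM or more). None differed by 2-fold on the log2(FPKM + 1) scale. LIPT2, a lipoyl transferase of mitochondria, was lower at 0.883, 1.17 and 1.42 FPKM in chemoresistant DTP cells, against 1.98, 2.43 and 2.81 FPKM in parental DTP cells, and MTF1, the metal-responsive transcription factor, averaged 7.604 ± 1.56 FPKM in chemoresistant DTP cells and 5.54 ± 0.27 FPKM in parental DTP cells, with a log2 fold change of 0.37 ± 0.092 and overlapping libraries. GCSH, the lipoylated H protein of glycine cleavage, was lower by the same test (log2 fold change -0.42 ± 0.15, adjusted p = 0.0189 by limma) but did not pass it without parental DTP libraries 5 and 6 (-0.32, adjusted p = 0.0806). Metallothioneins, small proteins that bind zinc and copper, were all higher among those tested. MT1F had 14.3, 16.8 and 25.2 FPKM in chemoresistant DTP cells, against 4.705, 4.896 and 5.64 FPKM in parental DTP cells. MT1X had 19.7, 26.2 and 28.97 FPKM in chemoresistant DTP cells, against 6.88, 9.06 and 13.6 FPKM in parental DTP cells. MT2A had 484, 552 and 857 FPKM in chemoresistant DTP cells, against 234, 268 and 289 FPKM in parental DTP cells. Their log2 fold changes were 1.61 ± 0.090, 1.37 ± 0.15 and 1.13 ± 0.10 (SE), and no library of any of the 3 overlapped. SLC30A1, the zinc exporter, averaged 12.4 ± 1.76 FPKM in chemoresistant DTP cells and 6.77 ± 0.359 FPKM in parental DTP cells. In the list of copper transport and chaperones 7 of 11 tested genes were higher and 2 lower, where SCO1, a copper chaperone of cytochrome oxidase, averaged 4.46 ± 0.166 FPKM in chemoresistant DTP cells and 6.05 ± 0.416 FPKM in parental DTP cells. Ferritin chains were higher too, within an iron and ferroptosis list of 9 higher and 3 lower genes of 19 tested: FTL averaged 1156 ± 127 FPKM in chemoresistant DTP cells and 494 ± 57.4 FPKM in parental DTP cells. FTH1 averaged 698 ± 100.1 FPKM in chemoresistant DTP cells and 424 ± 168 FPKM in parental DTP cells. The FTH1 libraries overlapped because parental DTP library 6 reached 695 FPKM. Its log2 fold change was 0.79 ± 0.17 with them and 1.12 without both. PCBP1, a chaperone that hands iron to ferritin, averaged 14.1 ± 1.02 FPKM in chemoresistant DTP cells and 8.21 ± 1.72 FPKM in parental DTP cells. ACSL4, which loads membranes with the polyunsaturated fats that ferroptosis needs, was lower, with 2.66, 3.54 and 4.32 FPKM in chemoresistant DTP cells, against 9.32, 11.5 and 12.3 FPKM in parental DTP cells. For ACSL4 the log2 fold change was -1.44 ± 0.10 (SE, limma, adjusted p = 6e-12).

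Some drug transporters were among the larger differences. ABCC2, an efflux pump for glutathione conjugates, had 11.2, 15.6 and 16.7 FPKM in chemoresistant DTP cells, against 0.0873, 0.121 and 0.47 FPKM in parental DTP cells. For ABCC2 the log2 fold change was 3.72 ± 0.084 (SE, limma, adjusted p = 1.62e-21). ABCC3, a related pump, had 5.89, 7.63 and 8.58 FPKM in chemoresistant DTP cells, against 0.683, 0.826 and 1.32 FPKM in parental DTP cells. MVP, the major vault protein, had 12.8, 13.8 and 14.4 FPKM in chemoresistant DTP cells, against 2.54, 3.01 and 4.52 FPKM in parental DTP cells. All 3 were several times higher in every chemoresistant DTP library than in any parental DTP library. ABCC5 differed less, at 12.9 ± 2.05 FPKM in chemoresistant DTP cells and 7.604 ± 0.494 FPKM in parental DTP cells. Of 24 genes of drug efflux and platinum uptake, 12 passed the filter. Of these, 6 were higher, 3 by at least 2-fold, and 1 lower, with a median of 0.15. ALDH1A1, an aldehyde dehydrogenase often used as a marker of stem-like tumour cells, had 12.2, 14.6 and 18.7 FPKM in chemoresistant DTP cells, against 1.103, 1.26 and 1.71 FPKM in parental DTP cells. For ALDH1A1 the log2 fold change was 2.81 ± 0.085 (SE, limma, adjusted p = 5.84e-19). ADH7, the alcohol and retinol dehydrogenase of upper digestive epithelium, had 46.7, 47.8 and 52.1 FPKM in chemoresistant DTP cells, against 0.665, 0.848 and 2.14 FPKM in parental DTP cells. For ADH7 the log2 fold change was 4.56 ± 0.11 (SE, limma, adjusted p = 9.44e-21). ADH5, which clears formaldehyde with glutathione, averaged 25.7 ± 2.37 FPKM in chemoresistant DTP cells and 13.4 ± 2.004 FPKM in parental DTP cells. ALDH1L2, a mitochondrial folate enzyme, was lower at 2.86 ± 0.458 FPKM in chemoresistant DTP cells and 10.6 ± 0.764 FPKM in parental DTP cells. In the dehydrogenase list 8 of 17 tested genes were higher and 5 lower, with a median of 0.067. The list for repair of platinum adducts also holds genes of mismatch repair and of copying past adducts. Its members were more often lower, 15 of 31 against 4 higher. Their median was -0.12 (-0.28 over members with a mean of 5 FPKM or more). PMS2, a mismatch repair protein, averaged 7.68 ± 1.08 FPKM in chemoresistant DTP cells and 12.2 ± 1.06 FPKM in parental DTP cells. FANCE, of the Fanconi anaemia complex, was the largest exception at 14.8 ± 0.683 FPKM in chemoresistant DTP cells and 9.66 ± 0.79 FPKM in parental DTP cells. DDB1, which helps to find damaged bases, averaged 26.9 ± 1.82 FPKM in chemoresistant DTP cells and 37.4 ± 1.196 FPKM in parental DTP cells. REV3L, the polymerase that copies past adducts, averaged 3.92 ± 0.79 FPKM in chemoresistant DTP cells and 5.899 ± 0.489 FPKM in parental DTP cells. Each of these differences was below 2-fold.

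Genes of squamous maturation were higher in chemoresistant DTP cells, while the basal keratin KRT14 was lower. Of 44 cornified envelope and differentiation genes, 27 passed the filter. Of these, 23 were higher, 14 by at least 2-fold, and 1, the oesophageal keratin KRT13, was lower, with a median of 1.20. SPRR2D, a small proline-rich protein of the envelope, had 68.2, 89.9 and 145 FPKM in chemoresistant DTP cells, against 1.27, 2.07 and 3.498 FPKM in parental DTP cells. For SPRR2D the log2 fold change was 4.92 ± 0.17 (SE, limma, adjusted p = 6.32e-18). KRT16, a keratin of stressed and wounded epithelium, had 37.1, 47.98 and 72.7 FPKM in chemoresistant DTP cells, against 1.44, 1.74 and 2.78 FPKM in parental DTP cells. For KRT16 the log2 fold change was 4.12 ± 0.12 (SE, limma, adjusted p = 2.58e-19). SPRR2F had 20.04, 29.4 and 32.7 FPKM in chemoresistant DTP cells, against 0.473, 0.735 and 1.53 FPKM in parental DTP cells. SPRR1A had 124, 144 and 201 FPKM in chemoresistant DTP cells, against 7.77, 9.74 and 14.01 FPKM in parental DTP cells. In all 4 genes the lowest chemoresistant DTP library was several times the highest parental DTP library. KRT14 moved the other way, with 34.9, 38.2 and 50.4 FPKM in chemoresistant DTP cells, against 141, 153 and 180.4 FPKM in parental DTP cells. For KRT14 the log2 fold change was -1.95 ± 0.074 (SE, limma, adjusted p = 5.51e-17), and its basal partner KRT5 had a log2 fold change of 1.04 ± 0.060. Among the other fixed squamous markers, SFN, which holds cells before mitosis, had 662, 780.04 and 1124 FPKM in chemoresistant DTP cells, against 165, 169 and 201 FPKM in parental DTP cells. For SFN the log2 fold change was 2.20 ± 0.085 (SE, limma, adjusted p = 7.42e-17). TP63 was lower (log2 fold change -0.72 ± 0.10), as was the desmosome protein PKP1 (-0.35 ± 0.067), and TRIM29 (0.50 ± 0.053) and DSG3 (0.44 ± 0.087) were higher. The DSG3 libraries overlapped. The basal list as a whole had 12 of 24 members higher and 9 lower. The keratins of the basal layer thus did not move together. IGFBP3, a secreted binder of insulin-like growth factors, averaged 32.8 ± 1.07 FPKM in chemoresistant DTP cells and 5.11 ± 0.445 FPKM in parental DTP cells. LAMA3, a chain of laminin-332, averaged 9.08 ± 1.34 FPKM in chemoresistant DTP cells and 3.21 ± 0.14 FPKM in parental DTP cells.

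Every S100 gene that passed the filter was higher, 14 of 14 (16 were listed), 10 by at least 2-fold, with a median of 1.71. S100P had 49.1, 63.2 and 105 FPKM in chemoresistant DTP cells, against 0.682, 1.44 and 4.12 FPKM in parental DTP cells. For S100P the log2 fold change was 4.68 ± 0.22 (SE, limma, adjusted p = 3.53e-15). S100A7, psoriasin, had 28.7, 31.1 and 40.8 FPKM in chemoresistant DTP cells, against 0.162, 0.235 and 1.22 FPKM in parental DTP cells. For S100A7 the log2 fold change was 4.54 ± 0.14 (SE, limma, adjusted p = 7.91e-19). The S100 and SPRR genes named here, except S100P, lie together on chromosome 1 in the epidermal differentiation complex. A list of kallikrein peptidases, serpins and protease inhibitors showed the same direction, with 14 of 17 tested members higher and 1 lower. Its median was 1.10, or 1.78 with voom on the recovered reads, and 29 genes were listed. PI3, elafin, an inhibitor of neutrophil elastase, had 52.1, 54.7 and 80.005 FPKM in chemoresistant DTP cells, against 0.5, 1.34 and 2.63 FPKM in parental DTP cells. For PI3 the log2 fold change was 4.67 ± 0.16 (SE, limma, adjusted p = 1.05e-17). SLPI, another elastase inhibitor of mucosa, had 83.8, 89.5 and 137 FPKM in chemoresistant DTP cells, against 8.37, 9.98 and 11.6 FPKM in parental DTP cells. For SLPI the log2 fold change was 3.13 ± 0.11 (SE, limma, adjusted p = 7.44e-18). KLK10, a kallikrein-related peptidase, had 16.8, 19.2 and 20.6 FPKM in chemoresistant DTP cells, against 0.665, 0.849 and 1.77 FPKM in parental DTP cells. KLK11 had 3.03, 3.35 and 4.44 FPKM in chemoresistant DTP cells, against 0.118, 0.173 and 0.43 FPKM in parental DTP cells. No library of these 4 overlapped between the groups. Among junction genes the claudins stood out: CLDN4 averaged 9.35 ± 0.87 FPKM in chemoresistant DTP cells and 1.304 ± 0.424 FPKM in parental DTP cells. CLDN7 averaged 56.2 ± 8.87 FPKM in chemoresistant DTP cells and 13.02 ± 1.37 FPKM in parental DTP cells, within a list of 27 tested genes of which 11 were higher and 6 lower. JUP, plakoglobin, averaged 229 ± 12.9 FPKM in chemoresistant DTP cells and 118 ± 14.02 FPKM in parental DTP cells. CTNND1, p120 catenin, averaged 3.196 ± 0.716 FPKM in chemoresistant DTP cells and 1.13 ± 0.224 FPKM in parental DTP cells.

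Interferon-stimulated genes were higher without exception among those tested. Of 44 listed, 33 passed the filter and 33 were higher, 16 by at least 2-fold, with a median of 0.99. IFI27 had 25.2, 31.1 and 45.02 FPKM in chemoresistant DTP cells, against 0.102, 0.155 and 3.83 FPKM in parental DTP cells. For IFI27 the log2 fold change was 4.19 ± 0.29 (SE, limma, adjusted p = 7.1e-12), and without parental DTP libraries 5 and 6 its log2 fold change was 4.86. IFI6 had 18.999, 20.7 and 31.3 FPKM in chemoresistant DTP cells, against 0.633, 0.909 and 5.37 FPKM in parental DTP cells. For IFI6 the log2 fold change was 3.11 ± 0.27 (SE, limma, adjusted p = 3.48e-10), or 3.70 without those libraries. IFITM1, a membrane protein that blocks viral entry, had 106, 118 and 147 FPKM in chemoresistant DTP cells, against 10.9, 11.4 and 31.8 FPKM in parental DTP cells. For IFITM1 the log2 fold change was 2.90 ± 0.20 (SE, limma, adjusted p = 4.69e-12). Each of these genes was highest, within the parental DTP group, in libraries 5 and 6, as BST2 was. The class I antigen presentation genes were higher to a lesser degree, 14 of 18 with 0 lower and a median of 0.45. HLA-B, a heavy chain of the presenting complex, had 33.2, 36.5 and 55.2 FPKM in chemoresistant DTP cells, against 5.58, 6.25 and 10.5 FPKM in parental DTP cells. For HLA-B the log2 fold change was 2.29 ± 0.13 (SE, limma, adjusted p = 8.87e-14). HLA-C had 77.3, 81.1 and 98.05 FPKM in chemoresistant DTP cells, against 23.7, 26.9 and 36.1 FPKM in parental DTP cells. NLRC5, the transactivator of these genes, had 1.47, 2.05 and 2.396 FPKM in chemoresistant DTP cells, against 0.405, 0.46 and 0.492 FPKM in parental DTP cells. TAPBPL, a peptide editor of the complex, averaged 5.29 ± 0.308 FPKM in chemoresistant DTP cells and 1.86 ± 0.113 FPKM in parental DTP cells. All 4 had separate libraries. HLA genes are alike in sequence and vary between people, so their FPKM depend on how reads were assigned.

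Promoters of the listed interferon-stimulated genes often hold a shared element. The list holds genes known to respond to interferon, which acts through this element, so its share describes the list and tests nothing. All 33 tested members were higher, and the genes at least 2-fold higher include 16 of them. The element searched was GAAANNGAA on either strand, a core of the interferon-stimulated response element, in the 250 bases before and 50 bases after each start (RefSeq, GRCh38.p14). Overlapping matches were all kept. It was in 76.9% of 26 interferon-stimulated promoters matched by symbol, in 12.1% of 257 promoters of genes at least 2-fold higher, in 6.63% of 181 promoters of genes at least 2-fold lower, in 6.41% of 8961 promoters of tested genes and in 8.29% of all 27305 promoters of the table. The antioxidant response element, searched as TGACNNNGC on either strand, was in 30.0% of 30 NRF2 target promoters, in 16.3% of the promoters of genes at least 2-fold higher, in 16.6% of those at least 2-fold lower and in 15.5% of tested genes (13.6% of the table). The 4 promoters with the largest log2 fold changes among those that hold the element of their list show its place (the 250 bases before the start, 5′ to 3′ on the gene's own strand, with the element in capitals).
BST2 promoter (chr19:17405631-17405880, minus strand): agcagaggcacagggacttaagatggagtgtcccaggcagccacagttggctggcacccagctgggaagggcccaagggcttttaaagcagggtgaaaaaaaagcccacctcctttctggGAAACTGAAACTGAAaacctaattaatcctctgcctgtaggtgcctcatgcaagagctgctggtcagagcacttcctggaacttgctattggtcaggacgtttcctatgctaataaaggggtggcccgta

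IFI27 promoter (chr14:94110486-94110735, plus strand): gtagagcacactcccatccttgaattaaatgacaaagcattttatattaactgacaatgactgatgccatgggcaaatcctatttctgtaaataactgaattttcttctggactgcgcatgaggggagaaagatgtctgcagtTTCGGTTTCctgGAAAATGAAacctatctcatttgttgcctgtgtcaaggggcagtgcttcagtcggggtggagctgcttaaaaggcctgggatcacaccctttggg

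IFI6 promoter (chr1:27672193-27672442, minus strand): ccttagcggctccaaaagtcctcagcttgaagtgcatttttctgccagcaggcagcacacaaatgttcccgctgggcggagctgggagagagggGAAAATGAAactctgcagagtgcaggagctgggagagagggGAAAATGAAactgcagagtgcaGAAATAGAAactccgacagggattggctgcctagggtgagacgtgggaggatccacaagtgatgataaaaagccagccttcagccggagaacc

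CYP4F11 promoter (chr19:15934868-15935117, minus strand): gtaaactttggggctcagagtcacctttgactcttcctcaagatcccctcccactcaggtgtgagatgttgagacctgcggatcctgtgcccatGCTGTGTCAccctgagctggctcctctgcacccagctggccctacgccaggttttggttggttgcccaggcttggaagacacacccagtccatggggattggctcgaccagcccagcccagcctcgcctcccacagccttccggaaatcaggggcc
In BST2 the capitals hold 2 overlapping copies in tandem, in IFI27 they hold 2 copies on opposite strands, and in IFI6 they hold 3 copies. CYP4F11, a fatty acid hydroxylase listed as an NRF2 target, has a single antioxidant element on the opposite strand and had a log2 fold change of 3.10. A match describes letters, not binding, and promoters without a match may hold elements elsewhere. For 2 further lists, TGATGNAA (the CARE of ATF4 targets) was in 27.0% of 37 list promoters and 1.66% of tested genes. It was in 4.28% of promoters of genes at least 2-fold higher and 1.66% of those at least 2-fold lower. TTCNNGAA (a heat shock element) was in 23.8% of 21 list promoters and 5.99% of tested genes. Its shares were 8.95% for genes at least 2-fold higher and 9.94% for those at least 2-fold lower. No share of an element was tested.

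The deepest falls were in genes of varied roles. FKBP10 (ENSG00000141756, chromosome 17, 41812680 to 41823217), a collagen-folding enzyme of the endoplasmic reticulum, had 0.421, 0.965 and 1.24 FPKM in chemoresistant DTP cells, against 29.2, 31.02 and 34.1 FPKM in parental DTP cells. For FKBP10 the log2 fold change was -4.12 ± 0.10 (SE, limma, adjusted p = 4.25e-21). IRX1 (ENSG00000170549, chromosome 5, 3596054 to 3601403), an Iroquois homeobox factor, had 0.155, 0.218 and 0.314 FPKM in chemoresistant DTP cells, against 7.502, 9.86 and 10.9 FPKM in parental DTP cells. For IRX1 the log2 fold change was -3.10 ± 0.065 (SE, limma, adjusted p = 4.95e-22), and its neighbour IRX4 had 6.81, 7.3003 and 7.903 FPKM in chemoresistant DTP cells, against 45.4, 49.2 and 54.7 FPKM in parental DTP cells. For IRX4 the log2 fold change was -2.60 ± 0.053 (SE, limma, adjusted p = 3.3e-22). In these 3 genes the highest chemoresistant DTP library was far below the lowest parental DTP library. PLTP, which carries phospholipids between lipoproteins, had 0.171, 0.245 and 0.333 FPKM in chemoresistant DTP cells, against 8.27, 8.46 and 9.95 FPKM in parental DTP cells. For PLTP the log2 fold change was -2.96 ± 0.050 (SE, limma, adjusted p = 1.35e-23). TPM2, a tropomyosin of actin filaments, had 1.56, 3.47 and 7.09 FPKM in chemoresistant DTP cells, against 28.8, 31.5 and 33.99 FPKM in parental DTP cells. For TPM2 the log2 fold change was -2.90 ± 0.29 (SE, limma, adjusted p = 3.95e-09), with a wide spread among the chemoresistant DTP libraries. CCDC8, a scaffold of the cullin 7 complex, was at or near 0 in chemoresistant DTP cells (0, 0.0198 and 0.167 FPKM), against 6.49, 6.73 and 7.205 FPKM in parental DTP cells. PDPN, podoplanin, a membrane protein of basal squamous cells and lymphatic vessels, had 1.21, 1.39 and 1.52 FPKM in chemoresistant DTP cells, against 13.8, 15.9 and 16.95 FPKM in parental DTP cells. For PDPN the log2 fold change was -2.82 ± 0.047 (SE, limma, adjusted p = 1.35e-23). IGF2BP1, an RNA-binding protein of embryonic tissue, averaged 1.52 ± 0.508 FPKM in chemoresistant DTP cells and 14.7 ± 0.652 FPKM in parental DTP cells. RAC3, a small GTPase of the cytoskeleton, averaged 4.05 ± 1.04 FPKM in chemoresistant DTP cells and 27.5 ± 3.47 FPKM in parental DTP cells. These 2 were lower by several fold in each library. SV2A, a synaptic vesicle protein, averaged 0.22 ± 0.0683 FPKM in chemoresistant DTP cells and 5.72 ± 0.398 FPKM in parental DTP cells. MXRA7, a matrix-remodelling associated gene, averaged 1.297 ± 0.141 FPKM in chemoresistant DTP cells and 15.5 ± 0.931 FPKM in parental DTP cells. CCL2, the monocyte chemokine, had 0.184, 0.34 and 0.486 FPKM in chemoresistant DTP cells, against 5.49, 6.09 and 6.64 FPKM in parental DTP cells. For CCL2 the log2 fold change was -2.41 ± 0.12 (SE, limma, adjusted p = 1.79e-14). None of the 12 largest falls had overlapping libraries, by the rule that chose them.

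Homeobox and lineage factors did not move one way: 15 of 37 were higher and 19 lower. SOX15 was the largest rise among them, with 30.96, 33.01 and 37.6 FPKM in chemoresistant DTP cells, against 2.01, 2.22 and 3.33 FPKM in parental DTP cells. For SOX15 the log2 fold change was 3.34 ± 0.070 (SE, limma, adjusted p = 5.07e-22). FOXA1 averaged 6.23 ± 1.05 FPKM in chemoresistant DTP cells and 2.81 ± 0.256 FPKM in parental DTP cells. Mesenchymal and matrix genes were split as well, with 10 of 29 higher and 9 lower. VIM, vimentin, had 3.84, 4.53 and 6.82 FPKM in chemoresistant DTP cells, against 0.411, 0.677 and 1.06 FPKM in parental DTP cells. AXL, a receptor kinase tied to mesenchymal states and drug tolerance, had 0.361, 0.523 and 0.756 FPKM in chemoresistant DTP cells, against 2.76, 3.21 and 3.55 FPKM in parental DTP cells. Both were at low levels, and they differed in opposite directions (log2 fold changes 1.78 ± 0.12 and -1.45 ± 0.076). COL4A2, a basement membrane collagen, averaged 4.95 ± 0.46 FPKM in chemoresistant DTP cells and 10.3 ± 0.538 FPKM in parental DTP cells. Genes of the actin cytoskeleton list were more often higher, 14 of 24 against 4 lower. By at least 2-fold on the log2(FPKM + 1) scale, 0 were higher and 1 was lower. ACTG1 averaged 1052 ± 33.9 FPKM in chemoresistant DTP cells and 609 ± 70.6 FPKM in parental DTP cells. TAGLN2 averaged 246 ± 23.6 FPKM in chemoresistant DTP cells and 124 ± 8.86 FPKM in parental DTP cells. ZYX, zyxin, averaged 23.6 ± 1.44 FPKM in chemoresistant DTP cells and 12.5 ± 0.827 FPKM in parental DTP cells. Of the integrins and laminins, 12 of 18 were higher and 1 lower, and ITGA3 was among the higher ones (34.9 ± 2.33 FPKM in chemoresistant DTP cells and 17.8 ± 1.898 FPKM in parental DTP cells). ITGB5 averaged 11.7 ± 0.393 FPKM in chemoresistant DTP cells and 7.201 ± 0.656 FPKM in parental DTP cells. Secreted proteases that cleave plasminogen were higher: PLAT had 13.8, 14.2 and 15.02 FPKM in chemoresistant DTP cells, against 0.622, 0.736 and 1.27 FPKM in parental DTP cells. For PLAT the log2 fold change was 3.05 ± 0.066 (SE, limma, adjusted p = 8.22e-22). PLAU, urokinase, had 17.6, 21.8 and 24.9 FPKM in chemoresistant DTP cells, against 5.29, 6.16 and 7.42 FPKM in parental DTP cells, and its receptor PLAUR had 1.34, 1.66 and 2.05 FPKM in chemoresistant DTP cells, against 0.3, 0.373 and 0.391 FPKM in parental DTP cells. MMP28 averaged 5.41 ± 0.575 FPKM in chemoresistant DTP cells and 0.611 ± 0.121 FPKM in parental DTP cells, and in this list 12 of 16 were higher and 3 lower.

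Ligands and receptors of the EGFR family, which drive growth of squamous cells, differed in both directions. EGFR itself had 46.7, 95.7 and 105 FPKM in chemoresistant DTP cells, against 231, 246 and 267 FPKM in parental DTP cells. For EGFR the log2 fold change was -1.51 ± 0.13 (SE, limma, adjusted p = 1.95e-10). Its lowest value in chemoresistant DTP cells was that of library 2, and the groups were apart. EREG, epiregulin, a ligand of EGFR, had 4.895, 6.29 and 7.103 FPKM in chemoresistant DTP cells, against 32.4, 35.6 and 39.1 FPKM in parental DTP cells. For EREG the log2 fold change was -2.35 ± 0.070 (SE, limma, adjusted p = 5.03e-19). HBEGF, another ligand, had 22.1, 25.1 and 25.7 FPKM in chemoresistant DTP cells, against 3.31, 3.72 and 4.01 FPKM in parental DTP cells. For HBEGF the log2 fold change was 2.44 ± 0.054 (SE, limma, adjusted p = 1.26e-21). Of 29 tested members of the family and its ERK feedback, 13 were higher and 14 lower. DUSP4, a phosphatase that dampens ERK, averaged 3.11 ± 0.162 FPKM in chemoresistant DTP cells and 0.282 ± 0.0945 FPKM in parental DTP cells. Among other receptor kinases and growth factor binders, FGFR3 had 9.11, 12.1 and 13.2 FPKM in chemoresistant DTP cells, against 2.26, 2.65 and 2.96 FPKM in parental DTP cells. FGFBP1, which releases fibroblast growth factors from the matrix, had 15.8, 16.99 and 21.5 FPKM in chemoresistant DTP cells, against 5.1996, 5.596 and 6.001 FPKM in parental DTP cells. IGFBP4 had 1.66, 2.99 and 5.76 FPKM in chemoresistant DTP cells, against 12.8, 13.7 and 16.9 FPKM in parental DTP cells. That list had 10 of 21 members higher and 8 lower. Of the NF-kB list, IL1A, an interleukin-1 cytokine, had 7.86, 8.39 and 8.88 FPKM in chemoresistant DTP cells, against 0.104, 0.167 and 0.22 FPKM in parental DTP cells. For IL1A the log2 fold change was 3.02 ± 0.067 (SE, limma, adjusted p = 1.16e-21). IL1B, another, had 1.88, 1.98 and 2.92 FPKM in chemoresistant DTP cells, against 0.0135, 0.0527 and 0.118 FPKM in parental DTP cells. IL1RN, the antagonist of their receptor, had 3.08, 3.65 and 4.12 FPKM in chemoresistant DTP cells, against 0.106, 0.207 and 0.283 FPKM in parental DTP cells. The list was split: with CCL2 lower and these 3 higher, it held 13 higher and 8 lower of 28 (median 0.15), and its median was -0.001 over the members with a mean of 5 FPKM or more. In the TGF-beta list (8 higher and 8 lower of 20), BAMBI, a decoy receptor, had 14.01, 14.97 and 18.7 FPKM in chemoresistant DTP cells, against 0.898, 1.02 and 1.34 FPKM in parental DTP cells. For BAMBI the log2 fold change was 2.98 ± 0.060 (SE, limma, adjusted p = 3.3e-22). ID1 averaged 62.6 ± 10.8 FPKM in chemoresistant DTP cells and 24.5 ± 2.85 FPKM in parental DTP cells. ID2 averaged 3.28 ± 1.42 FPKM in chemoresistant DTP cells and 9.48 ± 0.738 FPKM in parental DTP cells. These related inhibitors of transcription factors differed in opposite directions. LTBP4, which stores TGF-beta in the matrix, averaged 9.29 ± 0.785 FPKM in chemoresistant DTP cells and 2.89 ± 0.378 FPKM in parental DTP cells. In the WNT and Notch list (9 higher and 12 lower of 26), NOTCH3 had 8.06, 11.7 and 13.7 FPKM in chemoresistant DTP cells, against 0.785, 0.986 and 1.45 FPKM in parental DTP cells. WNT5A, a ligand, had 2.75, 3.98 and 4.305 FPKM in chemoresistant DTP cells, against 0.12, 0.158 and 0.18 FPKM in parental DTP cells. WNT7B, another ligand, had 10.3, 11.96 and 12.5 FPKM in chemoresistant DTP cells, against 37.1, 40.6 and 45.8 FPKM in parental DTP cells. The receptor NOTCH3 and WNT5A were thus higher and WNT7B lower, with no shared range in any of them. HEY2, a Notch target, averaged 1.97 ± 0.22 FPKM in chemoresistant DTP cells and 0.382 ± 0.0904 FPKM in parental DTP cells.

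**Figure D2:**
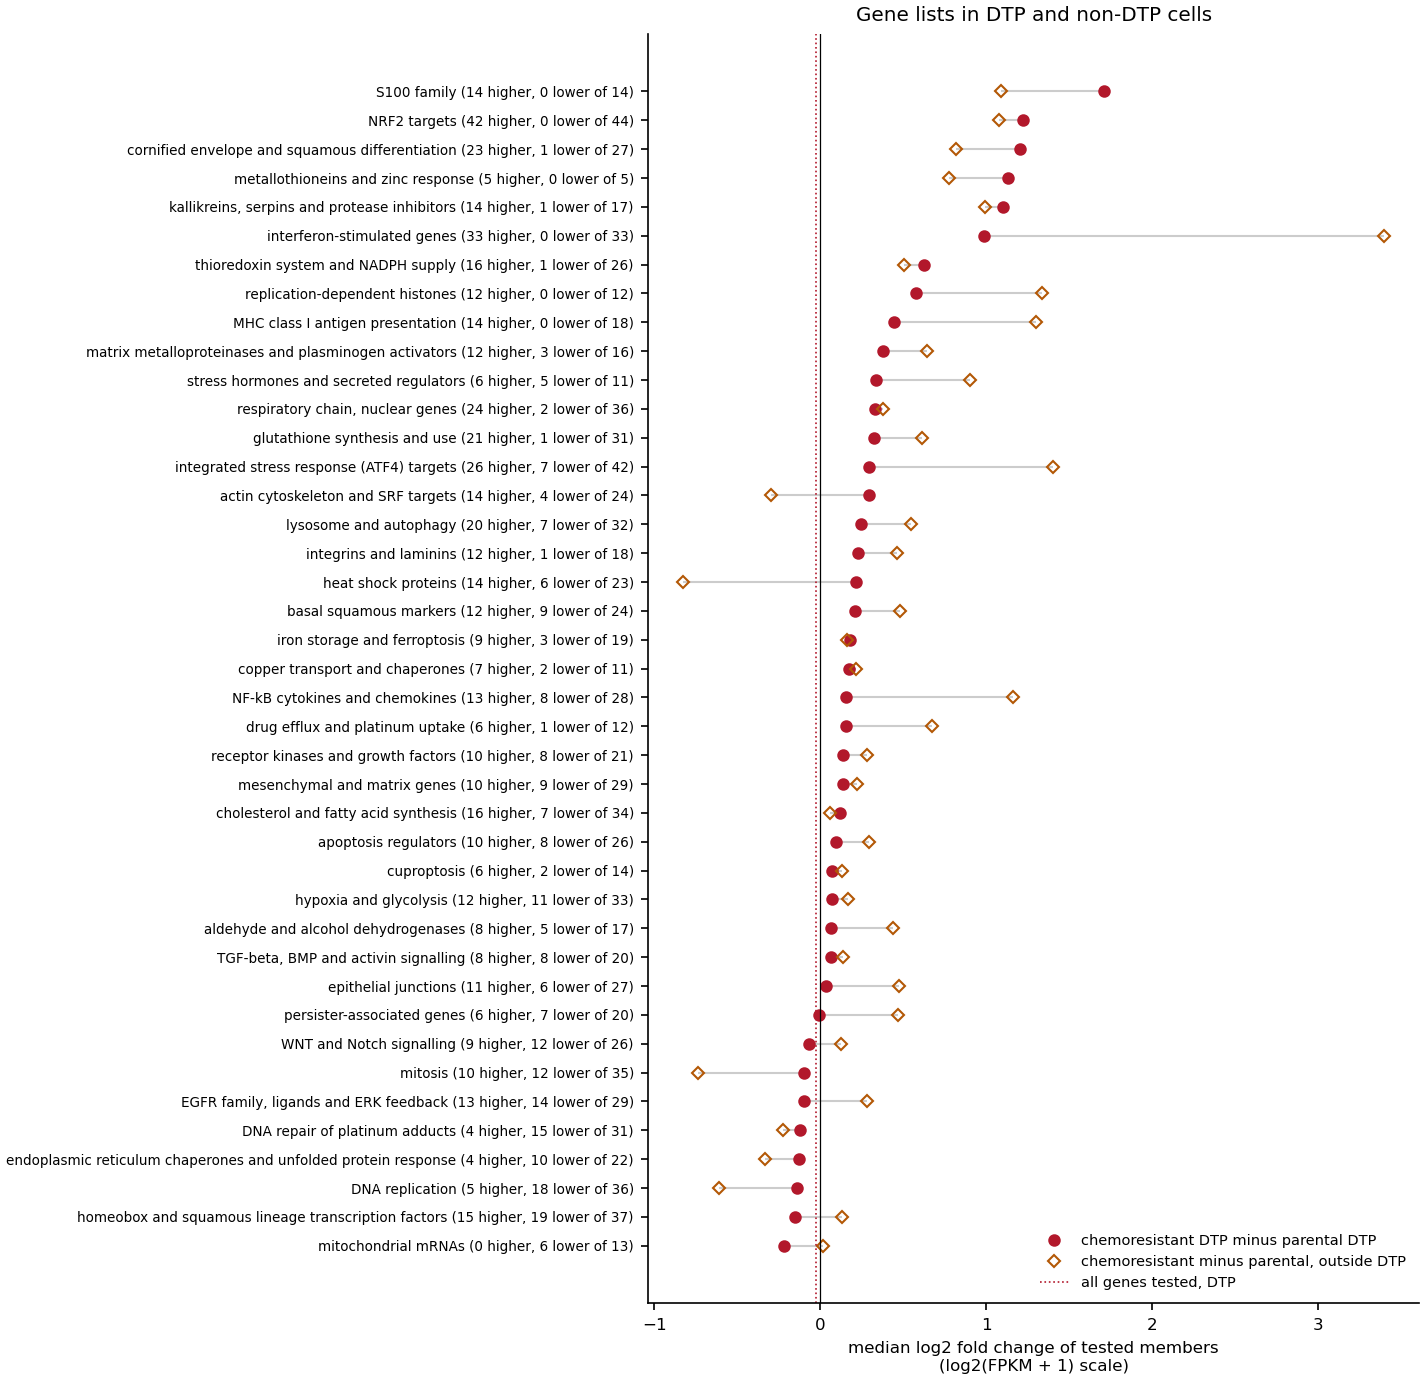
Median log2 fold change of the tested members of each gene list (horizontal axis, log2(FPKM + 1) scale) between chemoresistant DTP and parental DTP cells (filled circles) and between chemoresistant and parental cells outside the DTP state (open diamonds), for the lists reported here with at least 5 tested members. The S100, NRF2 and cornified envelope lists lie highest among DTP cells, at 1.71, 1.22 and 1.20, and the interferon-stimulated list has the widest distance between its circle (0.99) and its diamond (3.39).

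Targets of the integrated stress response, in which ATF4 raises amino acid and stress genes, were more often higher than lower: 26 against 7 of 42, with a median of 0.29. FGF21, a stress hormone like GDF15, had 4.12, 5.07 and 7.75 FPKM in chemoresistant DTP cells, against 0.304, 0.594 and 1.14 FPKM in parental DTP cells. For FGF21 the log2 fold change was 1.90 ± 0.12 (SE, limma, adjusted p = 5.59e-13). Other secreted regulators were split, 6 higher and 5 lower of 11: STC1 averaged 1.899 ± 0.299 FPKM in chemoresistant DTP cells and 0.326 ± 0.0679 FPKM in parental DTP cells. PTHLH, the hormone behind calcium release in squamous tumours, had 14.4, 15.4 and 16.3 FPKM in chemoresistant DTP cells, against 52.5, 61.5 and 62.9 FPKM in parental DTP cells. For PTHLH the log2 fold change was -1.89 ± 0.050 (SE, limma, adjusted p = 3.62e-20). Chaperones of the endoplasmic reticulum were more often lower, 10 against 4 of 22. HYOU1, a large chaperone of that compartment, had 23.6, 28.2 and 30.4 FPKM in chemoresistant DTP cells, against 80.6, 84.02 and 87.5 FPKM in parental DTP cells. For HYOU1 the log2 fold change was -1.56 ± 0.044 (SE, limma, adjusted p = 1.86e-19). HYOU1 was several times lower in each library. SYVN1, a ligase of misfolded proteins, averaged 14.6 ± 1.12 FPKM in chemoresistant DTP cells and 26.97 ± 4.52 FPKM in parental DTP cells. EDEM1, which marks misfolded glycoproteins, was higher at 9.84 ± 1.28 FPKM in chemoresistant DTP cells and 4.73 ± 0.628 FPKM in parental DTP cells. PDIA6 was lower at 27.9 ± 0.954 FPKM in chemoresistant DTP cells and 38.3 ± 3.43 FPKM in parental DTP cells. Heat shock proteins had 14 of 23 members higher and 6 lower, with a median of 0.21. HSPA1B had 28.96, 34.6 and 36.5 FPKM in chemoresistant DTP cells, against 12.8, 14.04 and 15.4 FPKM in parental DTP cells. HSPA1A had 63.7, 66.7 and 75.5 FPKM in chemoresistant DTP cells, against 24.8, 35.4 and 39.6 FPKM in parental DTP cells. These copies of inducible HSP70 are near-identical, so their split is uncertain. HSPA8, the constitutive HSP70, had 131, 136 and 143 FPKM in chemoresistant DTP cells, against 76.7, 82.7 and 96.9 FPKM in parental DTP cells. For HSPA8 the log2 fold change was 0.69 ± 0.055 (SE, limma, adjusted p = 7.51e-11). DNAJB1, an HSP40 partner, averaged 20.2 ± 0.697 FPKM in chemoresistant DTP cells and 11.5 ± 0.454 FPKM in parental DTP cells. The groups were separate for these 4 genes.

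Among cell cycle genes, those of mitosis were split and those of replication were more often lower, both by small amounts. Of 35 mitosis genes, 10 were higher and 12 lower (median -0.10). Of 36 replication genes, 5 were higher and 18 lower (median -0.14). None in either list differed by 2-fold on the log2(FPKM + 1) scale, which understates folds at low levels. MKI67, the marker of cycling cells, had 10.4, 23.9 and 27.4 FPKM in chemoresistant DTP cells, against 26.5, 38.6 and 41.8 FPKM in parental DTP cells. For MKI67 the log2 fold change was -0.74 ± 0.16 (SE, limma, adjusted p = 0.000392), with an overlap of libraries, and NUF2, of the kinetochore, was higher at 6.67 ± 0.87 FPKM in chemoresistant DTP cells and 4.29 ± 0.894 FPKM in parental DTP cells. AURKB averaged 24.4 ± 2.78 FPKM in chemoresistant DTP cells and 37.1 ± 3.703 FPKM in parental DTP cells. KIF4A averaged 9.504 ± 0.692 FPKM in chemoresistant DTP cells and 14.4 ± 1.07 FPKM in parental DTP cells. AURKB, a mitotic kinase, and KIF4A, a chromosome motor, had separate groups, and NUF2 did not. GINS1, of the replicative helicase, averaged 2.35 ± 0.26 FPKM in chemoresistant DTP cells and 5.34 ± 0.313 FPKM in parental DTP cells. PRIM1, of the primase, averaged 3.95 ± 0.504 FPKM in chemoresistant DTP cells and 7.32 ± 1.03 FPKM in parental DTP cells. RFC3, of the clamp loader, averaged 9.801 ± 1.23 FPKM in chemoresistant DTP cells and 14.7 ± 1.06 FPKM in parental DTP cells. GINS1, PRIM1 and RFC3 were all lower, with separate libraries. CDKN1A, the cell cycle brake p21, had 8.81, 11.1 and 12.2 FPKM in chemoresistant DTP cells, against 1.98, 2.54 and 2.601 FPKM in parental DTP cells. For CDKN1A the log2 fold change was 1.79 ± 0.082 (SE, limma, adjusted p = 2.1e-15). The libraries of CDKN1A did not overlap between the groups. PHLDA3 and GADD45A were higher too. PHLDA3, a brake on AKT, averaged 11.9 ± 2.55 FPKM in chemoresistant DTP cells and 5.998 ± 1.05 FPKM in parental DTP cells. GADD45A, induced by DNA damage, averaged 48.97 ± 6.64 FPKM in chemoresistant DTP cells and 30.004 ± 1.701 FPKM in parental DTP cells. Replication-dependent histone genes, whose transcripts mostly lack poly(A) tails, were higher in 12 of 12 tested (22 listed), with summed levels of 172 to 212 FPKM in chemoresistant DTP libraries and 88.1 to 96.8 FPKM in parental DTP libraries. H1-2 averaged 17.9 ± 1.58 FPKM in chemoresistant DTP cells and 5.903 ± 0.943 FPKM in parental DTP cells. These are core and linker histones of the nucleosome. H2BC12 averaged 97.4 ± 12.3 FPKM in chemoresistant DTP cells and 41.7 ± 3.17 FPKM in parental DTP cells. H2BC4 averaged 5.75 ± 0.636 FPKM in chemoresistant DTP cells and 2.602 ± 0.349 FPKM in parental DTP cells. H2AC6 averaged 15.4 ± 1.36 FPKM in chemoresistant DTP cells and 8.28 ± 1.102 FPKM in parental DTP cells. The labels do not say how RNA was selected, and the part of that selection in the histone values was not tested. Apoptosis regulators were split, 10 higher and 8 lower of 26: the death-promoting BIK averaged 5.92 ± 0.391 FPKM in chemoresistant DTP cells and 2.04 ± 0.339 FPKM in parental DTP cells. HRK averaged 1.901 ± 0.1 FPKM in chemoresistant DTP cells and 0.477 ± 0.0351 FPKM in parental DTP cells. These BH3-only proteins of low level were both higher. CASP1, an inflammatory caspase, averaged 3.14 ± 0.208 FPKM in chemoresistant DTP cells and 7.43 ± 0.658 FPKM in parental DTP cells. BIRC2, an inhibitor of apoptosis, averaged 8.78 ± 0.876 FPKM in chemoresistant DTP cells and 18.6 ± 2.14 FPKM in parental DTP cells.

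Nuclear genes of the respiratory chain were mostly higher, 24 of 36 against 2 lower (median 0.33), with none past 2-fold on the log2(FPKM + 1) scale. NDUFA1 of complex I had 122, 139 and 214 FPKM in chemoresistant DTP cells, against 75.7, 83.5 and 106 FPKM in parental DTP cells, its highest value being that of chemoresistant DTP library 2. Without that library and parental DTP libraries 5 and 6, 29 members were higher and 3 lower. NDUFA2 averaged 28.4 ± 6.63 FPKM in chemoresistant DTP cells and 17.01 ± 2.44 FPKM in parental DTP cells. ATP5MC3, of the ATP synthase, averaged 85.5 ± 14.1 FPKM in chemoresistant DTP cells and 54.4 ± 5.83 FPKM in parental DTP cells. Of the 13 messenger RNAs of the mitochondrial genome, 0 were higher and 6 lower: MT-ND5 had 1713, 2057 and 2186 FPKM in chemoresistant DTP cells, against 2424, 3124 and 3357 FPKM in parental DTP cells. MT-ND1 had 2424, 2656 and 2929.8 FPKM in chemoresistant DTP cells, against 3288, 3830.2 and 4359.6 FPKM in parental DTP cells. MT-ND2 and MT-ND4 were lower with overlapping libraries (log2 fold changes -0.40 ± 0.11 and -0.33 ± 0.081). The other 7 did not pass the test, and without parental DTP libraries 5 and 6, 1 was higher and 6 were lower. Glycolysis and hypoxia genes were split, 12 higher and 11 lower of 33. HIF1A, the oxygen-sensing factor, had 51.5, 69.9 and 77.3 FPKM in chemoresistant DTP cells, against 115, 173 and 181 FPKM in parental DTP cells. For HIF1A the log2 fold change was -1.22 ± 0.11 (SE, limma, adjusted p = 8.85e-10). CA9, its carbonic anhydrase target, averaged 1.87 ± 0.357 FPKM in chemoresistant DTP cells and 4.56 ± 0.671 FPKM in parental DTP cells. ADM, another target, averaged 27.5 ± 2.76 FPKM in chemoresistant DTP cells and 52.5 ± 4.23 FPKM in parental DTP cells. SLC16A3, a lactate exporter, was higher at 1.61 ± 0.26 FPKM in chemoresistant DTP cells and 0.357 ± 0.085 FPKM in parental DTP cells. HIF1A, CA9 and ADM were thus lower, each with separate libraries, but the list was split and SLC16A3 of the same list was higher. Sterol and fatty acid genes had 16 of 34 members higher and 7 lower. HMGCS1 averaged 14.1 ± 1.64 FPKM in chemoresistant DTP cells and 5.62 ± 0.396 FPKM in parental DTP cells. PMVK averaged 24.6 ± 5.84 FPKM in chemoresistant DTP cells and 10.8 ± 1.61 FPKM in parental DTP cells. FADS1 averaged 3.52 ± 0.527 FPKM in chemoresistant DTP cells and 7.78 ± 0.422 FPKM in parental DTP cells. HMGCS1 and PMVK, enzymes of the mevalonate pathway, were higher, and the desaturase FADS1 was lower. SQSTM1, an autophagy receptor that also frees NRF2 by binding KEAP1, had 107, 121 and 128 FPKM in chemoresistant DTP cells, against 37.8, 39.6 and 43.3 FPKM in parental DTP cells. For SQSTM1 the log2 fold change was 1.54 ± 0.047 (SE, limma, adjusted p = 8.7e-19). Within the lysosome and autophagy list (20 higher and 7 lower of 32), the protease CTSD averaged 28.7 ± 5.07 FPKM in chemoresistant DTP cells and 11.996 ± 1.597 FPKM in parental DTP cells. CTSB, a related protease, averaged 17.5 ± 0.303 FPKM in chemoresistant DTP cells and 10.3 ± 0.57 FPKM in parental DTP cells. WIPI1, of autophagosome formation, averaged 6.94 ± 0.315 FPKM in chemoresistant DTP cells and 18.8 ± 1.601 FPKM in parental DTP cells.

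Genes often tied to persister states had shares near those of all genes: 6 of 20 were higher and 7 lower, with a median of -0.008 that turned to 0.022 under relative log expression factors. CD24 had 9.98, 10.6 and 12.9 FPKM in chemoresistant DTP cells, against 1.65, 1.85 and 2.11 FPKM in parental DTP cells. EPAS1, a relative of HIF1A, averaged 2.66 ± 0.467 FPKM in chemoresistant DTP cells and 0.77 ± 0.102 FPKM in parental DTP cells. Only 3 of 26 cancer-testis antigens passed the filter: PRAME averaged 1.77 ± 0.171 FPKM in chemoresistant DTP cells and 1.17 ± 0.104 FPKM in parental DTP cells. MAGED1 averaged 9.75 ± 0.418 FPKM in chemoresistant DTP cells and 11.97 ± 1.66 FPKM in parental DTP cells. GAGE2A, 1 of many near-identical copies, had 206, 222 and 328 FPKM in chemoresistant DTP cells, against 194, 199.7 and 209 FPKM in parental DTP cells. Libraries of MAGED1 and of GAGE2A overlapped, and the GAGE2A call was lost when the fit held only the 12 DTP libraries. Of long noncoding RNAs, CASC19 had 0.636, 0.928 and 1.29 FPKM in chemoresistant DTP cells, against 22.8, 29.4 and 31.5 FPKM in parental DTP cells. For CASC19 the log2 fold change was -3.90 ± 0.078 (SE, limma, adjusted p = 3.3e-22). LINC01133 had 5.95, 6.59 and 7.97 FPKM in chemoresistant DTP cells, against 0.375, 0.505 and 0.683 FPKM in parental DTP cells. For LINC01133 the log2 fold change was 2.35 ± 0.056 (SE, limma, adjusted p = 4.84e-21). No library overlapped in either, and CASC19 was among the deepest falls of any gene. The next falls among long noncoding RNAs were PIK3CD-AS2 (-2.19), GLIS3-AS1 (-2.14), LINC01816 (-1.95) and ENSG00000250838 (-1.89), and the next rises LINC01388 (2.34), ENSG00000231683 (2.19), ENSG00000224251 (2.10) and WNT5A-AS1 (2.07), as log2 fold changes. The strandedness of the libraries is not given in the sources used here, so reads of WNT5A and WNT5A-AS1, and of other antisense partners, cannot be told apart. NEAT1, an RNA held in the nucleus, averaged 29.4 ± 2.63 FPKM in chemoresistant DTP cells and 22.6 ± 2.36 FPKM in parental DTP cells. MALAT1, another, averaged 22.3 ± 3.397 FPKM in chemoresistant DTP cells and 33.4 ± 2.73 FPKM in parental DTP cells. NORAD averaged 50.8 ± 6.402 FPKM in chemoresistant DTP cells and 37.9 ± 3.29 FPKM in parental DTP cells. Of these, NEAT1 and NORAD were higher with overlapping libraries, and MALAT1 was lower.

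**Figure D3:**
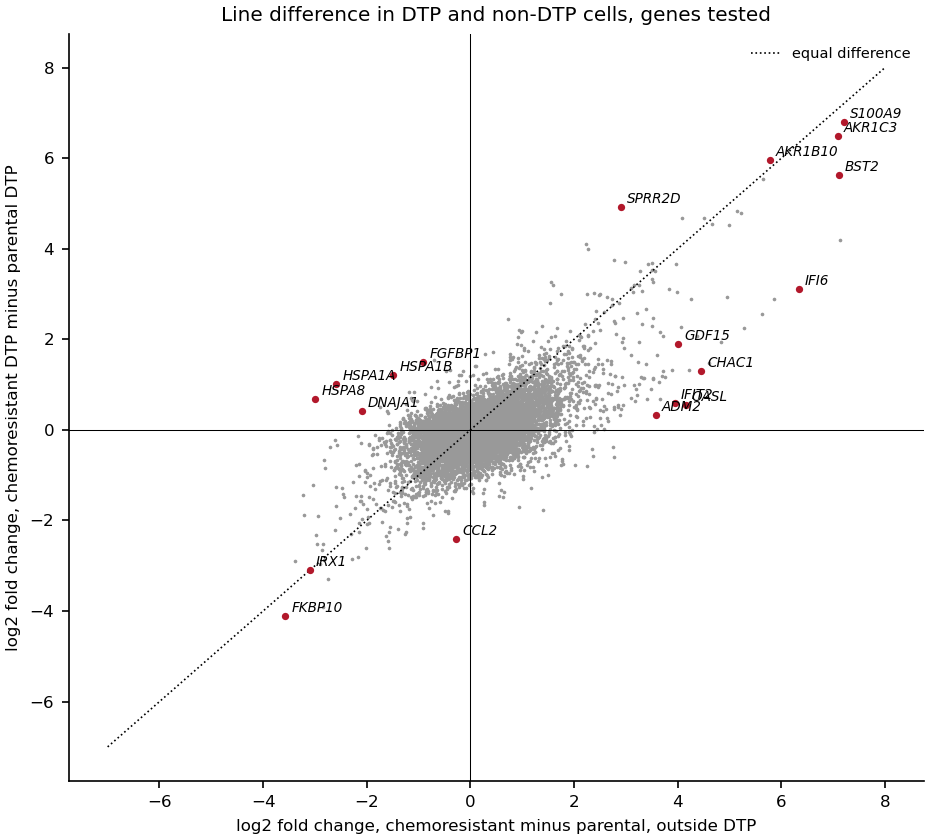
Log2 fold change of each of the 13179 genes tested between chemoresistant DTP and parental DTP cells (vertical axis) against that between chemoresistant and parental cells outside the DTP state (horizontal axis), with an equal difference as a dotted line. S100A9, AKR1C3 and AKR1B10 lie near the dotted line at the upper right, the interferon-stimulated OASL, IFIT2 and IFI6 well below it, and HSPA8 and HSPA1A above it at the left (-3.00 and -2.60 outside the DTP state).

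The same line difference was measured outside the DTP state in libraries that none of the 12 share. Across the 13179 genes, the log2 fold changes of the 2 comparisons had a Pearson correlation of 0.624 and a Spearman correlation of 0.474, as a description over genes that are not independent. Of the 415 genes at least 2-fold higher among DTP cells, 318 (76.6%) were also at least 2-fold higher outside the state, which is 25.1% of the 1269 called there (9.63% of genes tested). Of the 306 at least 2-fold lower, 128 (41.8%) were also at least 2-fold lower outside, 28.2% of the 454 called there (3.44%). Outside the state, 6204 genes (47.1%) were higher and 3916 (29.7%) lower at any size. Counting these, 649 of these 721 genes were called the same way, 32 the other way and 40 not at all. The line difference in DTP cells minus that outside was past the threshold for 8315 genes (63.1% of those tested), with 2743 positive (20.8%) and 5572 negative (42.3%). Over all genes tested, the median line difference outside was 0.129 and the median difference of differences -0.154. These uneven counts are therefore read against medians away from 0. The total was 8346 with relative log expression factors and 8365 with upper-quartile factors. The part of library scaling in the split by sign was not tested. Among the 721 genes the difference of differences was past the threshold for 491. In the genes at least 2-fold higher it was positive for 116 and negative for 149. In those at least 2-fold lower it was negative for 188 and positive for 38. A sign that goes with the DTP difference does not require the same direction outside the state, where 32 of the 721 were called the other way. AKR1C3 (7.09 outside), AKR1B10 (5.78), S100A9 (7.21) and GCLC (2.58) did not pass the test of this difference of differences (adjusted p = 0.23, 0.598, 0.524 and 0.761, limma). Its estimate for GCLC was 0.033 ± 0.089 (SE) and for S100A9 -0.42 ± 0.55, where the SE is wide. GDF15 was less strongly higher among DTP cells than outside, where it averaged 24.8 ± 1.75 FPKM in chemoresistant and 0.607 ± 0.123 FPKM in parental cells, with a difference of differences of -2.12 ± 0.12 (limma, adjusted p = 3.64e-13). SPRR2D was more strongly higher among DTP cells (2.02 ± 0.24, adjusted p = 8.28e-08, limma), and CCL2 was lower among DTP cells with little difference outside (-0.28).

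**Figure D4:**
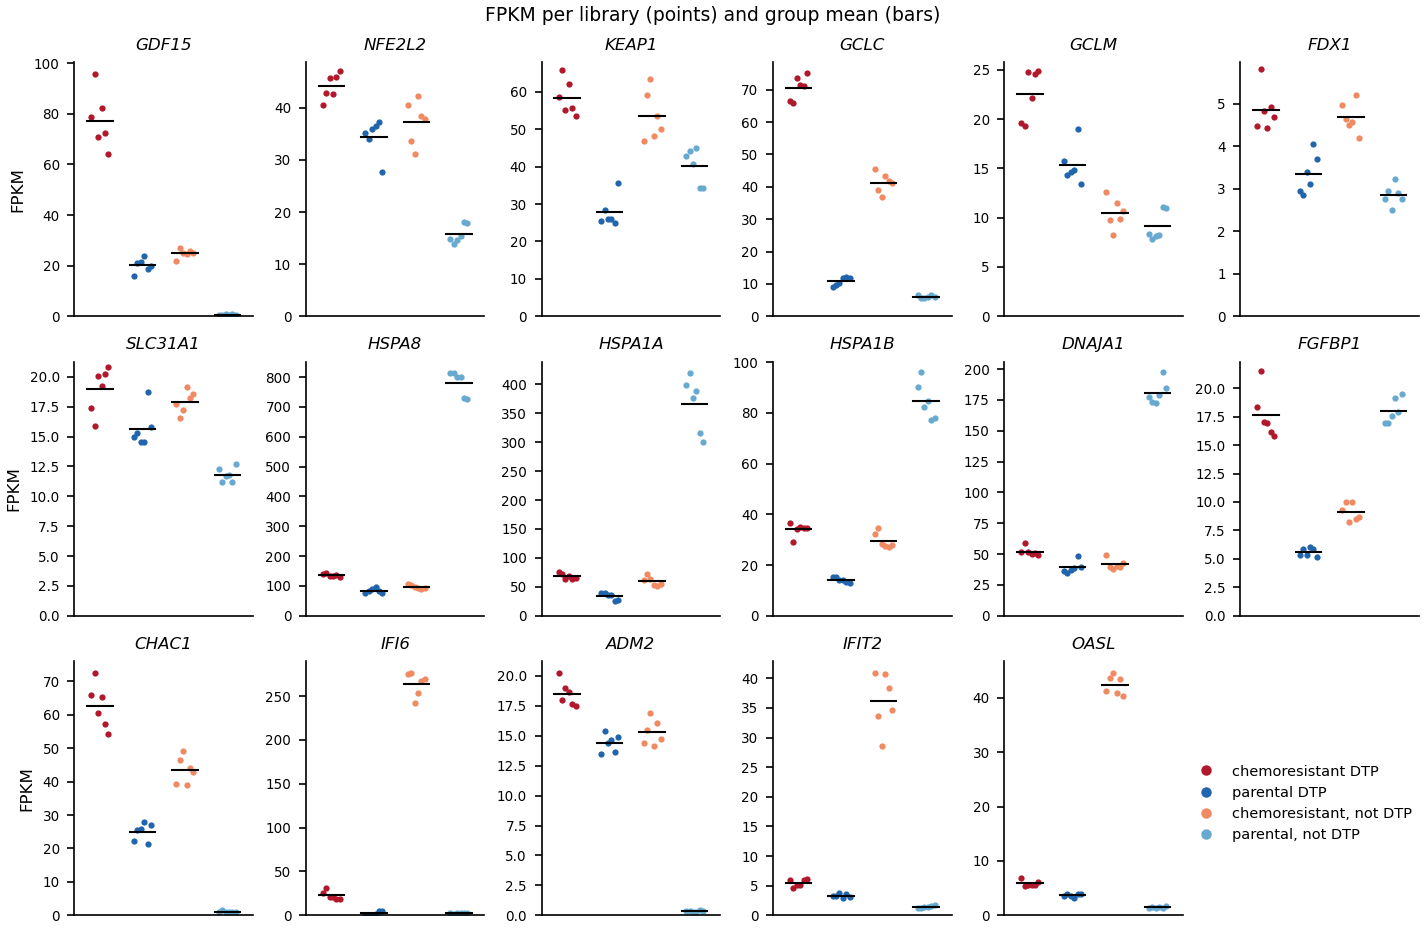
FPKM per library (points) and group means (bars) in chemoresistant DTP, parental DTP, chemoresistant and parental cells, from left to right in each panel. Shown are genes of the series title and of the pathways it names, and the genes with the largest difference of differences. HSPA8 is highest in parental cells outside the DTP state (781 FPKM on average) and OASL in chemoresistant cells outside it (42.4 FPKM).

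Differences of differences ran both ways. OASL, an interferon-induced antiviral protein, averaged 5.86 ± 0.571 FPKM in chemoresistant DTP cells and 3.67 ± 0.26 FPKM in parental DTP cells, and 42.4 ± 1.74 FPKM in chemoresistant and 1.44 ± 0.149 FPKM in parental cells outside the state, a difference of differences of -3.60 ± 0.074 (SE; limma, adjusted p = 2.91e-21). IFIT2 averaged 5.44 ± 0.618 FPKM in chemoresistant DTP cells and 3.28 ± 0.291 FPKM in parental DTP cells, against 36.2 ± 4.77 FPKM in chemoresistant and 1.41 ± 0.229 FPKM in parental cells outside, and IFI6 averaged 264 FPKM in chemoresistant and 2.32 FPKM in parental cells outside. For all 33 interferon-stimulated genes tested the difference of differences was negative and past the threshold, with list medians of 0.99 among DTP cells and 3.39 outside. CHAC1 (-3.16 ± 0.11) and ADM2, a secreted peptide of the calcitonin family (-3.24 ± 0.066), completed the 5 most negative, and their list of ATF4 targets had medians of 0.29 among DTP cells and 1.40 outside. On the positive side, HSPA8 averaged 96.9 ± 6.78 FPKM in chemoresistant and 781 ± 40.9 FPKM in parental cells outside the state, so that a line difference of -3.00 there stood beside 0.69 among DTP cells (3.69 ± 0.077, adjusted p = 2.93e-21, limma). HSPA1A (3.61 ± 0.15), HSPA1B (2.70 ± 0.10), DNAJA1 (2.51 ± 0.10) and FGFBP1 (2.40 ± 0.088) followed, each lower in chemoresistant than in parental cells outside the state and higher among DTP cells. In the heat shock list 21 of 23 genes had a positive difference of differences and 0 a negative one, and in the mitosis list 30 of 35 were positive and 1 negative. Outside the state 32 of these 35 mitosis genes were lower and 1 higher in chemoresistant cells (median -0.738). Of 36 replication genes, 33 were lower and 2 higher there (median -0.608).

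Neighbouring genes differed together in parts of the genome. In 266 windows of 10 Mb with at least 15 tested genes (GRCh38), the median log2 fold change among DTP cells had an SD of 0.185 over windows, and it correlated with the median of the same windows outside the state (Pearson 0.802, Spearman 0.576; a description over windows). The median was -0.3 or lower in 13 windows and 0.3 or higher in 6, bounds chosen after seeing the data, and all 19 had the same sign outside the state. The longest run lay on chromosome 11 between 70 and 120 Mb, where 176 of 213 genes were lower and 14 higher, with a median of -0.72 that held in each chemoresistant DTP library (-0.81 to -0.65). FDX1 lies in this run and was higher, while HYOU1, CASP1, BIRC2 and LIPT2 lie in it and were lower. On chromosome 5, genes between 30 and 50 Mb were higher (48 of 53, median 0.77; by library 0.53 to 0.92), among them HMGCS1, and genes in the first 10 Mb were lower (34 of 40, median -0.48), among them IRX1 and IRX4. Genes in the first 20 Mb of chromosome 7 were lower in 67 of 83 cases (median -0.52), PMS2 and AGR2 included, as were 92 of 114 in the first 30 Mb of chromosome 20 (median -0.49), GINS1 included and SRXN1 not. EGFR lies in a further window of chromosome 7, at 50 to 60 Mb, with 11 of 19 genes lower (median -0.34). The window of chromosome 1 at 150 to 160 Mb that holds the S100 and SPRR genes had a median of 0.32 over 160 genes, and 0.24 over the 131 that are in no list. What such runs rest on was not tested.

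**Figure D5:**
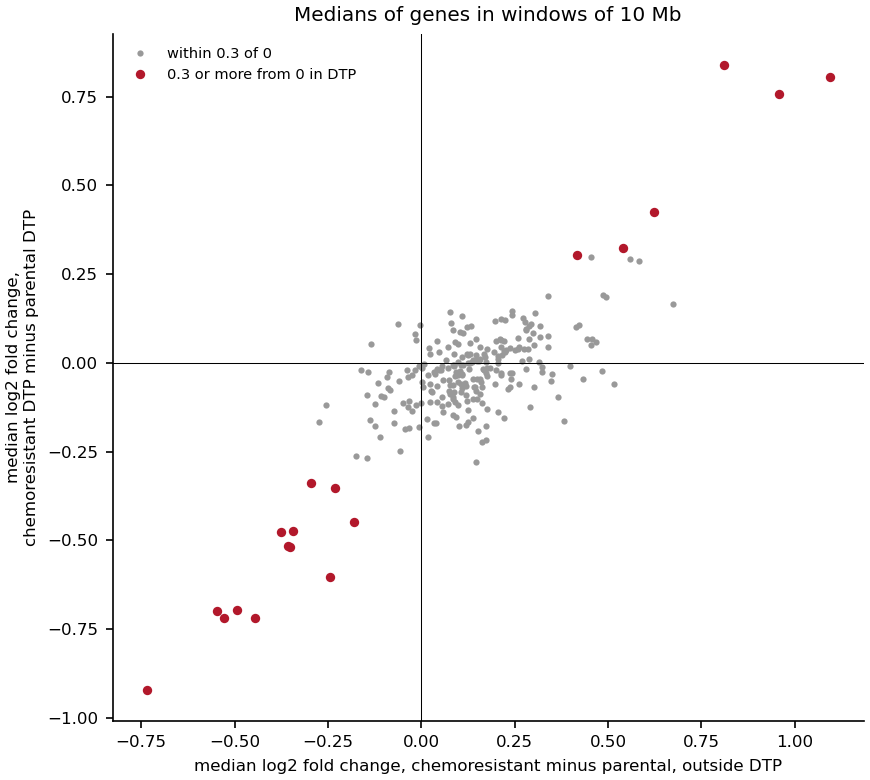
Median log2 fold change of the tested genes in each of 266 windows of 10 Mb, among DTP cells (vertical axis, chemoresistant DTP minus parental DTP) and outside the DTP state (horizontal axis, chemoresistant minus parental). The 19 red windows, 0.3 or more from 0 among DTP cells, all lie on the same side of 0 on both axes.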

How the data were processed

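RNA sequencing of KYSE450 cells was deposited as 1 table of FPKM values for 24 libraries, 6 in each of 4 groups. Per the file headers, the authors deposited FPKM per gene and library with Ensembl gene IDs. The build was GRCh38, per the submitters' processing notes. Aligner, counter, annotation and strandedness: not given in the sources used here. For 41101 of 41101 genes above 0, values were whole multiples (within 0.02 reads) of what 1 read is worth, so library totals of 14947379 to 37989445 reads were recovered. In all, 23 lines without a gene ID were left out. Names and positions came from GENCODE 29, which held 95.24% of the gene IDs. Each library's group came from its labelled phenotype and its number from its title, and its column was matched by the label's description and title. The test was limma 3.58.1 in R 4.3.3 with a mean-variance trend on log2(FPKM + 1), with 4 group means over 24 libraries, 13179 genes with a mean of 1 FPKM or more in either DTP group, a two-sided test and Benjamini-Hochberg adjustment at 0.05. The code was tested on simulated data. Since the values are FPKM, a count model was not the main test. Genes named are those of the series title and, from the pathways it names, KEAP1, GCLM, FDX1 and SLC31A1. The rule also names the 12 largest rises and 12 largest falls of protein coding genes at 5 FPKM or more without overlap. It adds the 4 largest called differences in each of 49 gene lists (1300 of 1302 entries matched, 87 genes in more than 1 list). Last come the 5 largest differences of differences each way and the 5 largest rises and falls of long noncoding RNAs. A few genes this rule names are not reported here. KRT5, KRT6A and other markers, genes named inside runs of neighbours, and genes whose fold moved without some libraries, were chosen after their values were seen. The comparison and the gene lists were chosen with earlier results of these data known. Alternatives were other scalings, pseudocounts, filters, sets of libraries, a replicate block, removal of a GC trend (GC content was had for 96.2% of genes tested) and voom on the recovered reads. Replicate numbers were checked for pairing: deviations of same-numbered chemoresistant DTP and parental DTP libraries correlated at -0.305 to 0.142, so the numbers were not taken to pair them.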

Additional observations from a re-analysis of the deposited data

Results flagged for a closer look

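Single libraries lay far from the other 5 of their group for 78 of 382 sets of 6 values looked at (the gap to the nearest library, as a share of the range, was above Dixon's 95% critical value), where chance flags about 1 in 20. Of these, chemoresistant DTP library 2 gave 53, parental DTP library 5 gave 12 and parental DTP library 6 gave 10.

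Chemoresistant DTP library 2 was the highest of its group for S100A9 (1489.9 FPKM, next 1120.0 FPKM), FTL (1403 FPKM, next 1166 FPKM), FTH1 (888 FPKM, next 691 FPKM), MT2A (857 FPKM, next 609.7 FPKM), TXN (790.2 FPKM, next 569.8 FPKM) and GAGE2A (328 FPKM, next 233 FPKM). It was also highest for AKR1C3 (313 FPKM, next 254 FPKM), TAGLN2 (289.8 FPKM, next 248 FPKM), AKR1C2 (287 FPKM, next 270.5 FPKM), BST2 (233 FPKM, next 168 FPKM), NDUFA1 (214 FPKM, next 155 FPKM) and NQO1 (197 FPKM, next 166 FPKM). At lower levels it led the group for SLPI (137 FPKM, next 91.9 FPKM), S100A8 (124 FPKM, next 86.1 FPKM), AKR1C1 (118 FPKM, next 99.8 FPKM), ATP5MC3 (114 FPKM, next 82.5 FPKM), AKR1B10 (104 FPKM, next 90.4 FPKM) and ID1 (84.1 FPKM, next 62.8 FPKM). Next came PI3 (80.005 FPKM, next 55.96 FPKM), KRT16 (72.7 FPKM, next 50.4 FPKM), GADD45A (62.2 FPKM, next 47.6 FPKM), DNAJA1 (59.3 FPKM, next 51.4 FPKM), HLA-B (55.2 FPKM, next 39.8 FPKM) and KRT14 (50.4 FPKM, next 39.8 FPKM). The same library was highest for NDUFA2 (41.6 FPKM, next 27.7 FPKM), CTSD (38.8 FPKM, next 27.8 FPKM), PMVK (36.1 FPKM, next 24.6 FPKM), ADM (32.8 FPKM, next 28.005 FPKM), AURKB (29.7 FPKM, next 24.3 FPKM) and MT1F (25.2 FPKM, next 18.2 FPKM). The remaining highest values were FDX1 (5.804 FPKM, next 4.92 FPKM) and GLIS3-AS1 (1.49 FPKM, next 0.746 FPKM). Chemoresistant DTP library 2 was the lowest of its group for TP63 (65.9 FPKM, next 104 FPKM), DSG3 (64.98 FPKM, next 90.7 FPKM), PKP1 (61.6 FPKM, next 82.7 FPKM), EGFR (46.7 FPKM, next 92.5 FPKM), HSPA1B (28.96 FPKM, next 34.2 FPKM) and NEAT1 (24.3 FPKM, next 29.02 FPKM). Further lowest values were DDB1 (23.3 FPKM, next 27.04 FPKM), ABCC2 (11.2 FPKM, next 15.1 FPKM), MKI67 (10.4 FPKM, next 21.5 FPKM), FGFR3 (9.11 FPKM, next 12.05 FPKM), ABCC5 (8.77 FPKM, next 13.2 FPKM) and LAMA3 (6.38 FPKM, next 9.39 FPKM). Below these were PMS2 (5.64 FPKM, next 7.44 FPKM), MTF1 (4.46 FPKM, next 7.96 FPKM), SCO1 (4.15 FPKM, next 4.45 FPKM), COL4A2 (4.09 FPKM, next 4.95 FPKM), WNT5A (2.75 FPKM, next 3.82 FPKM) and FADS1 (2.54 FPKM, next 3.53 FPKM). It was lowest as well for REV3L (2.34 FPKM, next 4.04 FPKM), ALDH1L2 (1.96 FPKM, next 2.82 FPKM) and EPAS1 (1.71 FPKM, next 2.77 FPKM). Chemoresistant DTP library 4 was apart for ACTG1 (1116 FPKM, next 1057 FPKM), and chemoresistant DTP library 1 for HBEGF (22.1 FPKM, next 24.7 FPKM).

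Parental DTP library 5 was the highest of its group for DNAJA1 (48.7 FPKM, next 39.7 FPKM), PDIA6 (45.1 FPKM, next 38.2 FPKM), NORAD (44.3 FPKM, next 37.9 FPKM), SLC31A1 (18.7 FPKM, next 15.8 FPKM), MT1X (13.6 FPKM, next 9.25 FPKM) and FANCE (11.2 FPKM, next 9.58 FPKM). It was highest too for SCO1 (6.86 FPKM, next 6.07 FPKM), GCSH (3.37 FPKM, next 1.904 FPKM), ALDH1A1 (1.71 FPKM, next 1.32 FPKM) and CTNND1 (1.57 FPKM, next 1.103 FPKM). Parental DTP library 5 was the lowest for AURKB (30.002 FPKM, next 36.9 FPKM) and TRIM29 (11.7 FPKM, next 13.5 FPKM). Parental DTP library 6 was the highest of its group for KRT5 (1413 FPKM, next 1169 FPKM), SFN (201 FPKM, next 176 FPKM), ATP5MC3 (65.4 FPKM, next 55.3 FPKM), KEAP1 (35.6 FPKM, next 28.4 FPKM), ID1 (30.005 FPKM, next 24.95 FPKM) and SRXN1 (3.63 FPKM, next 1.602 FPKM). Parental DTP library 6 was the lowest for PTHLH (52.5 FPKM, next 59.5 FPKM), NFE2L2 (27.7 FPKM, next 33.96 FPKM), ALDH1L2 (9.01 FPKM, next 10.8 FPKM) and REV3L (4.95 FPKM, next 5.902 FPKM). Parental DTP library 2 was apart for TXN (185 FPKM, next 207 FPKM).

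The line difference among DTP cells minus that outside the DTP state passed the limma threshold for 63.1% of all genes tested. Genes chosen for this difference had to pass it, so a count that includes them tests nothing. The difference of differences passed for 25 of the title and pathway genes, the largest rises and falls and those chosen genes. It was positive, on the log2 scale, for HSPA8 (3.69), HSPA1A (3.61), HSPA1B (2.70), DNAJA1 (2.51), FGFBP1 (2.40), SPRR2D (2.02), KEAP1 (0.65), RAC3 (0.44) and GCLM (0.35). It was negative for OASL (-3.60), IFIT2 (-3.35), ADM2 (-3.24), IFI6 (-3.22), CHAC1 (-3.16), CCL2 (-2.13), GDF15 (-2.12), BST2 (-1.47), IRX4 (-1.03), SV2A (-0.87), NFE2L2 (-0.83), PDPN (-0.64), MXRA7 (-0.56), FKBP10 (-0.55), AKR1C2 (-0.44) and SLC31A1 (-0.30).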

How the results depend on the processing

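With a pseudocount of 0.1, 691 genes were at least 2-fold higher and 686 at least 2-fold lower in chemoresistant DTP cells, against 415 and 306 with 1, and voom on the recovered reads, chosen after seeing the data, gave 736 and 743. A larger pseudocount shrinks the folds of low genes by construction. With a mean of 5 FPKM or more, 2290 genes were higher, 2383 lower and 266 at least 2-fold higher, and 4545 had a difference of differences, since fewer genes were tested. Leaving out 1 library at a time gave 401 to 437 genes at least 2-fold higher, 284 to 341 at least 2-fold lower, 3668 to 4169 higher, 4137 to 4482 lower and 8133 to 8757 with a difference of differences. The replicate block gave 3871 higher, 4414 lower, 415 and 306 by 2-fold, and 8360. It moved no count by over 1.5 times, and 1 of 6 libraries correlated best with its own number. Without parental DTP libraries 5 and 6, 3993 genes were higher, 4345 lower, 453 and 368 by 2-fold. With relative log expression factors 4219 were higher and 4129 lower. Of 4557 values of 191 named genes over 24 settings, 4552 kept direction and call, none reversed, and 5 lost the call: GCSH in 4 settings that leave out libraries (-0.31 to -0.35, adjusted p = 0.0555 to 0.0957, limma) and GAGE2A with only the 12 DTP libraries (0.23, adjusted p = 0.0532, limma). The cause was not tested. Of 1055 list medians under the alternatives, 22 moved by over 1 SD of the replicates. With a mean of 5 FPKM or more, which leaves fewer members, the median turned to -0.001 for the NF-kB list (0.153 in the report's setting), -0.198 for mesenchymal and matrix genes (0.138) and -0.192 for TGF-beta signalling (0.064). It was 0.22 for cuproptosis (0.073), -0.278 for platinum adduct repair (-0.12), -0.274 for the EGFR family (-0.098), -0.24 for WNT and Notch (-0.069), -0.253 for homeobox and lineage factors (-0.15), 0.03 for cholesterol and fatty acid synthesis (0.119) and 0.867 for histones (0.578). With a pseudocount of 0.1 and with voom, medians were 1.639 and 1.782 for kallikreins, serpins and inhibitors (1.099), 1.293 and 1.34 for interferon-stimulated genes (0.989), and 0.684 and 0.706 for histones. With the GC trend removed, with or without the replicate block, the EGFR family's was -0.045. Without chemoresistant DTP library 2 it was 0.12 for epithelial junctions (0.037) and 0.115 for hypoxia and glycolysis (0.071). Without parental DTP libraries 5 and 6 too, that of hypoxia and glycolysis was 0.156. edgeR and DESeq2 were planned for recovered reads and not run, since the deposited values are FPKM. Precision for genes near 1 FPKM is limited by depth.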
